A study of Drosophila melanogaster with 12 samples.

Results

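A group of 164 genes of the fly head had RNA levels that were strongly lower after 12 h of oxidative stress (OS) in G9a mutants and about level in controls. G9a is a histone H3 lysine methyltransferase that dimethylates lysine 9 (H3K9me2), a mark of silent chromatin. Paraquat in the food causes OS by making superoxide inside cells. In the head of an adult fly, the fat body lines the inner side of the cuticle, stores lipid and glycogen, secretes proteins into the haemolymph, and works much like liver and adipose tissue in mammals. The antenna holds olfactory neurons with support cells that secrete odorant-binding proteins into the sensillum fluid, and its Johnston's organ is a hearing organ whose neurons carry motile cilia built on axonemes.

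Heads of males aged 5 to 9 days were sequenced, 200 heads to a library. The G9a mutants were labelled homozygous for G9aDD1, a null allele that came from P-element excision, and a precise excision in the same background gave the controls. Mutants were sampled after 0, 6 and 12 h on food with 50 mM paraquat and controls after 0, 6 and 12 h on the same food, with 2 libraries for each of these 6 groups. No flies kept off paraquat were sampled at 6 or 12 h, so exposure and elapsed time cannot be told apart.

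The members were chosen by their own measured values, as deposited in the table of normalized counts, which are reads per gene divided by a size factor of the library. A gene was taken where its mean over the 12 libraries was at least 10, where the mean log2(count + 1) of the mutants at 12 h was lower than at 0 h by 1.5 or more, and where that of the controls differed by no more than 0.585 either way. Symbols that start with Gst, Hsp, Cyp, Ugt, Obp, Cpr or lncRNA: were set aside, which removed 22 genes that met the limits, 12 of them odorant-binding protein genes. The 164 members were chosen out of 15682 genes in the table, of which 10530 had a mean of at least 10, so every member passed that filter. The 6 h libraries entered the choice through the minimum mean alone, and without them Ts, at 9.77, would have been the one member to miss it. The difference between genotypes at 6 h is therefore the one that was tested, and all values at 0 and 12 h are a description. At the edges of the rule, CG7322 (-1.5002 on the log2 scale in mutants) was just inside and frma (-1.4996) just outside the limit on the mutants. For the controls, CG5280 (0.58) and CG3823 (-0.58) were just inside, with TTLL1B (0.59) and dmGlut (-0.59) just outside. Ts had the lowest mean count of the members, 10.2, and Ilp8, at 9.28, was left out by it.

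Reads on genes numbered 19275805 to 41393992 per library, and the 0 h libraries were the deepest (32325896 to 41393992, against 19275805 to 24253605 at 6 h and 21872478 to 24078932 at 12 h). The 2 libraries of each group are described as biological duplicates, and they differed by more than sampling noise. The G9a gene itself had 3519 to 3700 normalized counts in the 6 mutant libraries, against 2620 to 3087 in the 6 control libraries. The extent of the excision is not given in the sources used here, so this count was not used to check the labels. Counts were not divided by gene length, and levels are compared below only within a gene.

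One member, CG11437, encodes a phosphatidic acid phosphatase family protein and was also followed by the study with RT-qPCR. Its primers are shown because they tie that assay to the gene counted here. The gene lies on chromosome arm 3L, and the primers were not mapped to the genome here.
CG11437 forward primer: cagtatttgtggcccacctc
CG11437 reverse primer: ggtgtagtatcccgcgtagc

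At 6 h, 86 of the 164 members (52.4%) were lower in G9a mutants than in controls, and 4 (2.44%) were higher. Of the 86, 36 were lower in both mutant libraries at 0 h too, 25 were higher there and 25 overlapped. Over all 10530 genes tested, 7.39% were called lower and 6.53% higher, by limma at 1.5-fold or more with an adjusted p (Benjamini-Hochberg, over all genes tested) no higher than 0.05. At an unadjusted p under 0.05, 105 members were lower and 8 higher. These counts include 5 members that passed the minimum mean only through the controls, of which 4 were called lower. They also include 1 that passed it only through the mutants and was called higher. The members had a median log2 difference of -0.78 at 6 h (quartiles -1.25 and -0.32, range -3.64 to 2.34), and all genes tested had a median of 0.00042. Both mutant libraries at 6 h were below both control libraries for 124 members (75.6%), which is true of 32.8% of all genes tested. For 12 members both mutant libraries were above, against 34.7% of all genes tested, and for 28 the genotypes overlapped. The rule chose genes that were lower in mutants at 12 h than at 0 h, which favours a lower mutant level at 6 h. The shares of members and of all genes were therefore not compared by a test. In bulk heads, fewer cells of a type and less RNA per cell cannot be told apart.

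**Figure D1:**
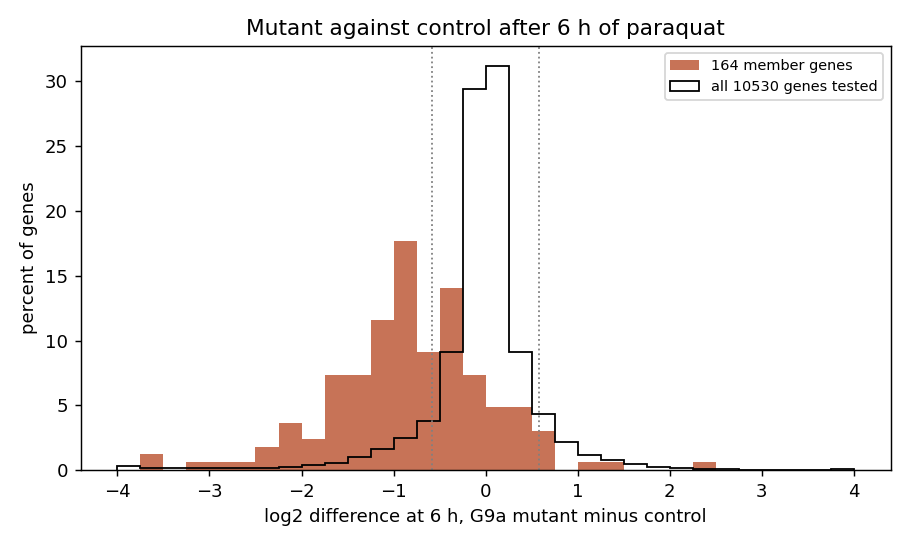
Share of genes, in percent, by their log2 difference at 6 h between G9a mutants and controls (2 libraries each), for the 164 members (filled) and all 10530 genes tested (line), with dotted lines at 1.5-fold and values past 4 or -4 drawn in the end bins. The members centre on -0.78, and all genes tested centre on 0.

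In mutants the levels at 6 h lay mostly between those at 0 and 12 h. There, 156 members had mean levels in the order 0 h over 6 h over 12 h, and for 129 the libraries of the 3 time points did not overlap, which is true of 16.5% of all genes tested; the rule itself used 2 of those time points. The median change in mutants was -0.99 on the log2 scale between 0 and 6 h and -1.01 between 6 and 12 h, and a median 47.7% of the log2 difference between 0 and 12 h was present by 6 h (quartiles 29.9% and 65.3%). In controls the medians were 0.11 between 0 and 6 h and -0.25 between 6 and 12 h. By the mean of log2(count + 1), Lime, prc, CG15282 and CG14356 were lowest in mutants at 6 h, while CG10357, CG17687, CG14693 and CR43086 were highest there. CG3081 was the only member whose mutant libraries at 0 and 12 h overlapped.

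**Figure D2:**
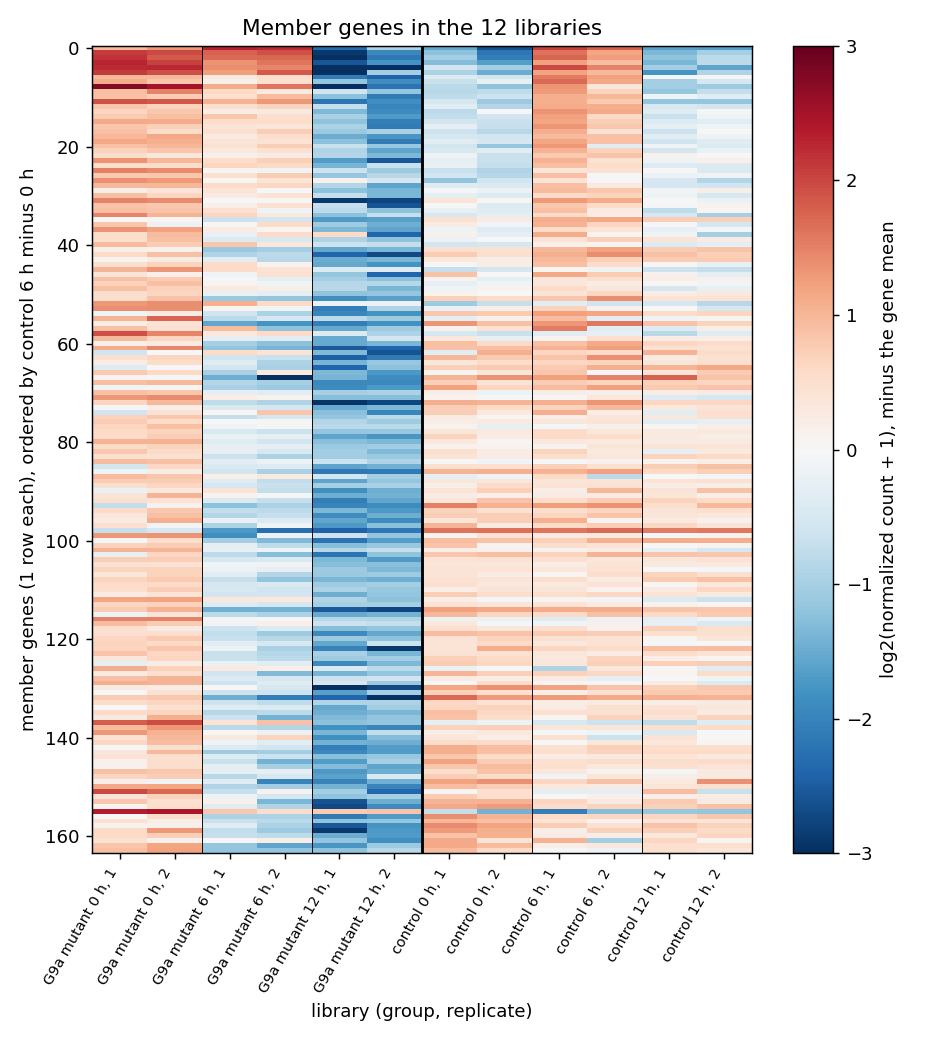
The 164 members (rows, ordered by the control change between 0 and 6 h) in the 12 libraries (columns, G9a mutants left, controls right), as log2(normalized count + 1) minus the mean of the gene, with colours ending at 3 and -3. The mutant 12 h libraries are the lowest in most rows because the rule chose such genes, while the 6 h columns entered the choice only through the minimum mean.

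The genotypes did not start level. At 0 h both mutant libraries were above both control libraries for 91 members and below them for 38, against 29.8% and 31.1% of all genes tested. The median difference at 0 h was 0.32 on the log2 scale, with a range of -2.25 to 3.74. At 12 h both mutant libraries were below both control libraries for 154 members and above them for 4, against 36.3% and 37.4% of all genes tested. The rule used the 0 and 12 h values, so nothing is read from these counts. Of the 86 members called lower at 6 h, 36 were already lower in both mutant libraries at 0 h, 25 were higher and 25 overlapped.

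Of 4 members grouped as fat body proteins, 3 were lower and 1 was higher in mutants at 6 h, with a median log2 difference of -2.001. For this and the role groups below, the shares called lower to set beside are 52.4% of all members and 7.39% of all genes tested. A role group need not hold every member of its kind, so its counts hold only for the genes named in it. Lsp2, a hexamerin that stores amino acids, had 15752 and 17787 normalized counts in mutants at 0 h, 7549 and 7192 at 6 h and 2073 and 2610.0 at 12 h, against 22792 and 19650.1 in controls at 0 h, 20542 and 29576 at 6 h and 13410.3 and 15525 at 12 h. At 6 h the mutants stood at 0.299 times the control level (log2 difference -1.74 ± 0.16 SE, adjusted p = 6.9e-06), and at no hour did the genotypes overlap. sxe2, a lipase-family gene regulated by the sex-determination pathway in the head fat body, had 4836 and 6071 normalized counts in mutants at 0 h, 981 and 858 at 6 h and 388 and 428 at 12 h, against 4122 and 4182 in controls at 0 h, 4583 and 5361 at 6 h and 3056 and 3014 at 12 h. Its mutant libraries were the higher ones at 0 h and far the lower ones at 6 h (log2 difference -2.43 ± 0.11 SE, adjusted p = 4.2e-08). smp-30, of the senescence marker protein family, had 258 and 245 normalized counts at 6 h in mutants, against 996 and 1462 in controls (log2 difference -2.26 ± 0.16 SE, adjusted p = 1.2e-06). The larval hexamerin gene Lsp1alpha was the exception of the 4, with 52.8 and 72.7 at 6 h in mutants, against 27.8 and 24.8 in controls (log2 difference 1.21 ± 0.23 SE, adjusted p = 0.0018). It was higher in mutants at 0 and 6 h, and at 12 h its mutant libraries (16.2 and 16.8) were below the control ones (22.7 and 30.3).

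The fixed list of fat body markers had 9 tested genes, Lsp2 and sxe2 among them. For this and every fixed list below, the shares of all genes tested to set beside are 7.39% called lower and 6.53% higher. At 6 h, 5 of the 9 were lower and 1 higher in mutants, with a median log2 difference of -1.65. Without the 2 members, the list summed to 56092 to 74682 normalized counts at 0 h, 17224 to 19018 at 6 h and 7421 to 8657 at 12 h in mutants, against 117884 to 117996, 52736 to 64265 and 56995 to 57103 in controls at the same hours. The sum was thus lower in mutants at every hour, and it also differed between 0 and 12 h in controls. The members were chosen to be about level in controls between those hours, so no contrast with them is read from this. None of the markers found was at 0 in all libraries. What part the amount of fat body RNA in a library had in the members' values was not tested.

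**Figure D3:**
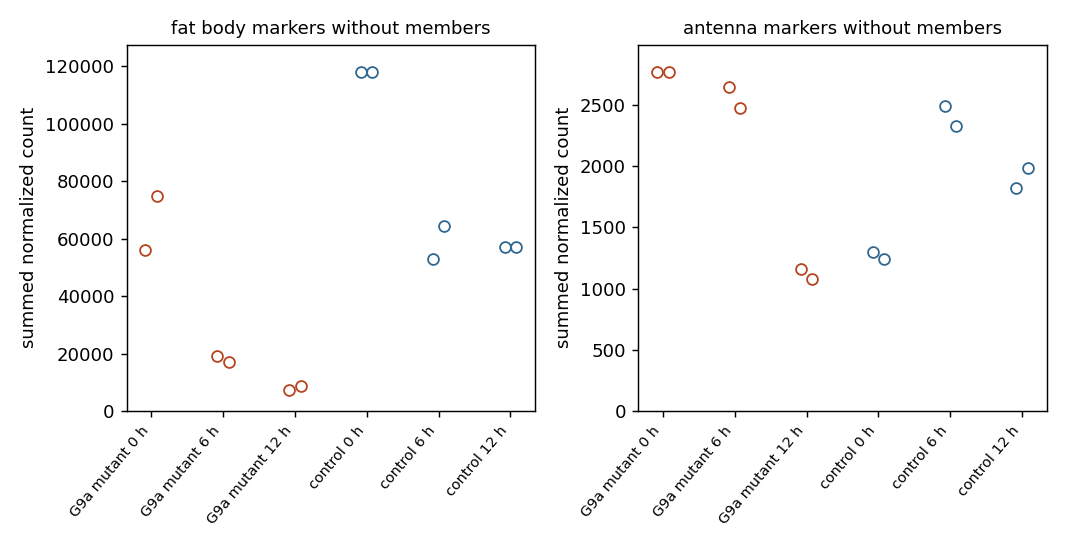
Summed normalized counts of the fat body markers (left panel) and antenna markers (right panel) that are not members, by group on the x axis, with 1 point per library, G9a mutants left and controls right, and both y axes starting at 0. The fat body sum is 7421 to 8657 in mutants at 12 h, while the antenna sum is highest in mutants at 0 h and, in controls, at 6 h.

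Members grouped as lipases and esterases numbered 4, of which 3 were lower in mutants at 6 h. The lipase-family gene sxe2 is counted with the fat body proteins above and not here. Est-6, a carboxylesterase, had 2466 and 3069.5 normalized counts in mutants at 0 h, 921 and 833 at 6 h and 204 and 233 at 12 h, against 3322 and 3177 in controls at 0 h, 3318 and 3939 at 6 h and 2407 and 2424 at 12 h. CG18302, of the acid lipase family, had 1269.7 and 1549.9 normalized counts in mutants at 0 h, 277 and 278 at 6 h and 129.8 and 109.5 at 12 h, against 1756 and 1673 in controls at 0 h, 1632 and 1625 at 6 h and 1351 and 1341 at 12 h. In both genes the mutant libraries were below the control ones at every hour, by little at 0 h and by more at 6 h (log2 difference -2.04 ± 0.11 SE, adjusted p = 1.5e-07 for Est-6, and log2 difference -2.55 ± 0.10 SE, adjusted p = 1.7e-08 for CG18302). CG4757, a carboxylesterase family gene, was also lower (log2 difference -1.21 ± 0.19 SE, adjusted p = 0.00042). CG10357, a lipase family gene, took another course, with 113 and 145 normalized counts in mutants at 0 h, 289 and 276 at 6 h and 10.8 and 28.9 at 12 h, against 19.1 and 8.36 in controls at 0 h, 245 and 201 at 6 h and 17.9 and 17.5 at 12 h. Both genotypes were highest at 6 h, where the difference did not pass (log2 difference 0.35 ± 0.41 SE, adjusted p = 0.57).

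All 5 members grouped as enzymes of sugar and amino acid metabolism were lower in mutants at 6 h, with a median of -1.37. The group is not a full list of such enzymes among the members, and it was drawn up after values had been seen. That all 5 were lower is therefore not read as a trait of such enzymes. Gcat, glycine C-acetyltransferase, which acts in threonine breakdown, had 322 and 366 normalized counts in mutants at 0 h, 158 and 109 at 6 h and 96.3 and 117 at 12 h, against 1624 and 1656 in controls at 0 h, 1594 and 1706 at 6 h and 1541 and 1575 at 12 h. It had the most negative difference of all members (log2 difference -3.64 ± 0.15 SE, adjusted p = 2.5e-08), at 0.0803 times the control level, and the mutants were already far lower at 0 h. Sodh1, a sorbitol dehydrogenase, had 1427 and 1645 normalized counts in mutants at 0 h, 412 and 349 at 6 h and 288 and 343 at 12 h, against 3054 and 2251 in controls at 0 h, 2981 and 3639 at 6 h and 2187 and 1939 at 12 h. The mutants reached 0.115 times the control level at 6 h (log2 difference -3.12 ± 0.15 SE, adjusted p = 8.4e-08). The other three were the glucose dehydrogenase gene Gld (log2 difference -1.04 ± 0.13 SE, adjusted p = 8.4e-05), the D-amino acid oxidase gene Daao2 (log2 difference -1.37 ± 0.33 SE, adjusted p = 0.0079) and CG6415, which encodes the aminomethyltransferase of the glycine cleavage system (log2 difference -0.95 ± 0.18 SE, adjusted p = 0.002). The fixed list of amino acid breakdown, which none of these genes is in, had 7 of 15 tested genes lower and none higher (median -0.50).

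Members grouped as lipid carriers and lipid enzymes numbered 8, of which 4 were lower at 6 h, with a median of -0.63. Cyt-b5-r, a cytochrome b5-related protein, had 3544 and 5251 normalized counts in mutants at 0 h, 1799 and 1456 at 6 h and 792 and 1164 at 12 h, against 6974 and 6603 in controls at 0 h, 5999 and 7670.2 at 6 h and 7866 and 7772 at 12 h. Its control libraries were level across the hours while the mutants were lower at each (log2 difference -2.07 ± 0.20 SE, adjusted p = 1.2e-05). CG10237, a CRAL-TRIO family gene for carriers of small lipids, had 1177 and 834 at 6 h in mutants, against 2701 and 2212 in controls (log2 difference -1.30 ± 0.13 SE, adjusted p = 2e-05). Jhbp14, of the juvenile hormone binding protein family, had 1483 and 1404 in mutants, against 2272 and 2633 in controls (log2 difference -0.76 ± 0.07 SE, adjusted p = 1.1e-05). In both, the mutant libraries were above the control ones at 0 h and below them at 6 h. The fatty acid transport protein gene Fatp3 was lower as well (log2 difference -0.77 ± 0.11 SE, adjusted p = 0.00025). CG10657 and CG3823, both of the CRAL-TRIO family, were not called (log2 difference -0.50 ± 0.10 SE, adjusted p = 0.0022 for CG10657, and log2 difference 0.33 ± 0.14 SE, adjusted p = 0.086 for CG3823). CG11437 had 46 and 46.1 normalized counts in mutants at 0 h, 17.6 and 16 at 6 h and 3.25 and 8.42 at 12 h, against 14.7 and 19.2 in controls at 0 h, 27.8 and 18.6 at 6 h and 16.7 and 11.6 at 12 h. At 6 h the difference did not pass (log2 difference -0.42 ± 0.41 SE, adjusted p = 0.48), and the mutant level at 0 h was the highest of the 6 groups.

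In the fixed list of fatty acid and triglyceride synthesis and storage, 5 of 18 tested genes were lower and 3 higher at 6 h, with a median of 0.11. In the list of starch and sugar digestion and transport, 6 of 17 were lower and 1 higher (median -0.29).

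Of 6 members grouped as membrane transporters, which is not a full list of such genes, 4 were lower in mutants at 6 h. The organic cation transporter gene Orct was lower (log2 difference -0.94 ± 0.09 SE, adjusted p = 8e-06). Its neighbour CG6356, of the same family (log2 difference -0.58 ± 0.08 SE, adjusted p = 0.00013), missed the 1.5-fold limit by little, and CG8654 of the same family was called (log2 difference -1.02 ± 0.14 SE, adjusted p = 0.00013). CG1213, a sugar transporter family gene, had 3704 and 3468 normalized counts in mutants at 0 h, 1993 and 1643 at 6 h and 1001 and 864 at 12 h, against 2174 and 1657 in controls at 0 h, 2551 and 2831 at 6 h and 2289 and 2233 at 12 h. Its difference at 6 h was just under 1.5-fold (log2 difference -0.57 ± 0.12 SE, adjusted p = 0.0039), and it passed when mutant replicate 1 (-0.71) or control replicate 1 (-0.65) of that hour was left out. The sulfate transporter family gene CG6125 (log2 difference -0.88 ± 0.10 SE, adjusted p = 4.5e-05) and the ABC transporter gene CG9664 (log2 difference -1.15 ± 0.11 SE, adjusted p = 1.1e-05) were lower.

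Of 6 members grouped as peptidases, which is not a full list of such genes, 5 were lower at 6 h, with a median of -1.09. Acer, a relative of angiotensin-converting enzyme, had 859 and 788 at 6 h in mutants, against 1695 and 2156 in controls (log2 difference -1.22 ± 0.12 SE, adjusted p = 1.2e-05). The neprilysin-like genes Nepl9 (log2 difference -1.54 ± 0.18 SE, adjusted p = 5e-05), Nepl18 (log2 difference -0.80 ± 0.19 SE, adjusted p = 0.0077) and Nepl19 (log2 difference -0.96 ± 0.15 SE, adjusted p = 0.00038) and the cathepsin gene CtsL3 (log2 difference -1.41 ± 0.33 SE, adjusted p = 0.0064) were lower too. CtsK2, another cathepsin gene, had 5152 and 5663 normalized counts in mutants at 0 h, 2470.2 and 2274 at 6 h and 873 and 871 at 12 h, against 2248 and 2021 in controls at 0 h, 2143 and 2649 at 6 h and 1609 and 1466 at 12 h. It was far higher in mutants at 0 h and overlapped the controls at 6 h (log2 difference -0.01 ± 0.10 SE, adjusted p = 0.96).

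Dso1 and Dso2 encode Daisho peptides, which are secreted under Toll signalling and act against fungi. Dso1 had 1009 and 1339.7 normalized counts in mutants at 0 h, 896 and 676 at 6 h and 255 and 564 at 12 h, against 2175 and 2297 in controls at 0 h, 2289 and 2805 at 6 h and 2704 and 2963 at 12 h. Dso2 had 153 and 109 at 6 h in mutants, against 424 and 538 in controls. Both were lower at 6 h (log2 difference -1.70 ± 0.28 SE, adjusted p = 0.00068 for Dso1, and log2 difference -1.88 ± 0.32 SE, adjusted p = 0.00077 for Dso2), and lower at 0 h as well. Among the 12 tested antimicrobial peptide genes of the fixed list, 1 was lower, none was higher and the median was -0.41. The mutant duplicates at 12 h, which the rule used, were far apart in the sum of that list. It was 581 and 9670 normalized counts there, against 5025 and 3842 in controls at 12 h.

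None of the 5 olfactory members was called at 6 h by limma, edgeR or DESeq2, and 0 of them had an unadjusted p under 0.05. Os-C, a secreted protein of olfactory sensilla, had 1677 and 1543 normalized counts in mutants at 0 h, 1324 and 1465 at 6 h and 51.9 and 102 at 12 h, against 166 and 86.1 in controls at 0 h, 1211 and 892 at 6 h and 152 and 196 at 12 h. The mutants were high at 0 and 6 h and low at 12 h, while the controls were high at 6 h alone. a10, an antennal chemosensory protein, had 1549 and 1219 normalized counts in mutants at 0 h, 1105 and 1129 at 6 h and 36.8 and 77 at 12 h, against 168 and 80.3 in controls at 0 h, 1151 and 815 at 6 h and 147 and 199 at 12 h. The course was the same as that of Os-C in both genotypes. a5, of the phosphatidylethanolamine-binding protein family, had 209.9 and 251 at 6 h in mutants, against 194 and 155 in controls. lush, an odorant-binding protein needed for the response to a male pheromone, had 292 and 349.7 in mutants, against 301 and 242 in controls. None of these 4 differences passed the test (log2 difference 0.42 ± 0.32 SE, adjusted p = 0.35 for Os-C, log2 difference 0.21 ± 0.36 SE, adjusted p = 0.71 for a10, log2 difference 0.40 ± 0.27 SE, adjusted p = 0.29 for a5 and log2 difference 0.24 ± 0.19 SE, adjusted p = 0.38 for lush). Or42a, an odorant receptor with few reads, had 28.9 and 12.8 at 6 h in mutants, against 25.2 and 44.7 in controls (log2 difference -0.77 ± 0.42 SE, adjusted p = 0.2), and its control levels overlapped across the hours.

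The antenna markers that are not members summed to 2769 to 2772 normalized counts at 0 h, 2478 to 2647 at 6 h and 1078 to 1160 at 12 h in mutants, against 1241 to 1302, 2326 to 2496 and 1823 to 1990 in controls at the same hours. None of the 13 tested genes of that list, the 4 members included, was called at 6 h by limma, edgeR or DESeq2 (median 0.21), and at an unadjusted p under 0.05 in limma 0 were lower and 2 higher. None of its 20 genes was at 0 in every library. What part the amount of antennal RNA in a library had in these values was not tested. Sfp84E, named as a seminal fluid protein, has exons on the strand opposite to Os-C. Because the library kit does not mark strand, reads from the stretch that Sfp84E shares with Os-C cannot be told apart. Sfp84E is described here with that limit. It had 45.3 and 64.2 at 6 h in mutants, against 53 and 26.1 in controls (log2 difference 0.52 ± 0.43 SE, adjusted p = 0.4).

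Of 6 members grouped as axonemal genes, 1 was lower at 6 h, with a median of -0.44. Dhc93AB, an axonemal dynein heavy chain, had 1758 and 1789 normalized counts in mutants at 0 h, 1316 and 1378 at 6 h and 484 and 295 at 12 h, against 675 and 658 in controls at 0 h, 1668 and 1088 at 6 h and 626 and 595 at 12 h. The genotypes overlapped at 6 h (log2 difference -0.000426 ± 0.21 SE, adjusted p = 1), when the control level was at its highest. CG3339, another dynein heavy chain, had 454 and 445 at 6 h in mutants, against 855 and 605 in controls (log2 difference -0.68 ± 0.30 SE, adjusted p = 0.1). Dnaaf6, a dynein assembly factor, was the one called (log2 difference -0.996 ± 0.33 SE, adjusted p = 0.039). The dynein heavy chain gene Dnah3 (log2 difference -0.23 ± 0.20 SE, adjusted p = 0.41), the dynein intermediate chain gene CG9313 (log2 difference -0.36 ± 0.30 SE, adjusted p = 0.4) and CCDC151, a docking factor of dynein arms (log2 difference -0.53 ± 0.41 SE, adjusted p = 0.36), were not called.

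More members than these had a high control level at 6 h. In 29 members the control level at 6 h was above that at 0 h by at least 1 on the log2 scale, and 4 of the 29 were called lower in mutants at 6 h. Acsx2, of the acyl-CoA synthetase family, was among the 29 but not called (log2 difference -0.30 ± 0.23 SE, adjusted p = 0.37), with 659.8 and 675 normalized counts in mutants at 0 h, 368 and 387 at 6 h and 15.1 and 10.8 at 12 h, against 93.7 and 68.6 in controls at 0 h, 552 and 392 at 6 h and 68.2 and 45.4 at 12 h. In 109 members the control change was within 0.585 either way, and 67 of these were called lower and 3 higher. At 0 h the median difference, mutant minus control, was 1.62 in the 29 and 0.16 in the 109. Between 0 and 6 h the mutants changed by a median of -0.46 in the 29 and -1.14 in the 109, and between 6 and 12 h by -1.996 in the 29 and -0.83 in the 109. Since the split uses the control 6 h libraries, the calls in the 2 sets were not compared by a test. How many of all genes tested had such control changes was not counted, so the sizes of the 2 sets are not read as a trait of the members. In 47 members (28.7%, against 5.30% of all genes tested) the mutant libraries were lower and the control libraries higher at 6 h than at 0 h without overlap. The 0 h libraries were also used by the rule, so nothing is read from that share.

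**Figure D4:**
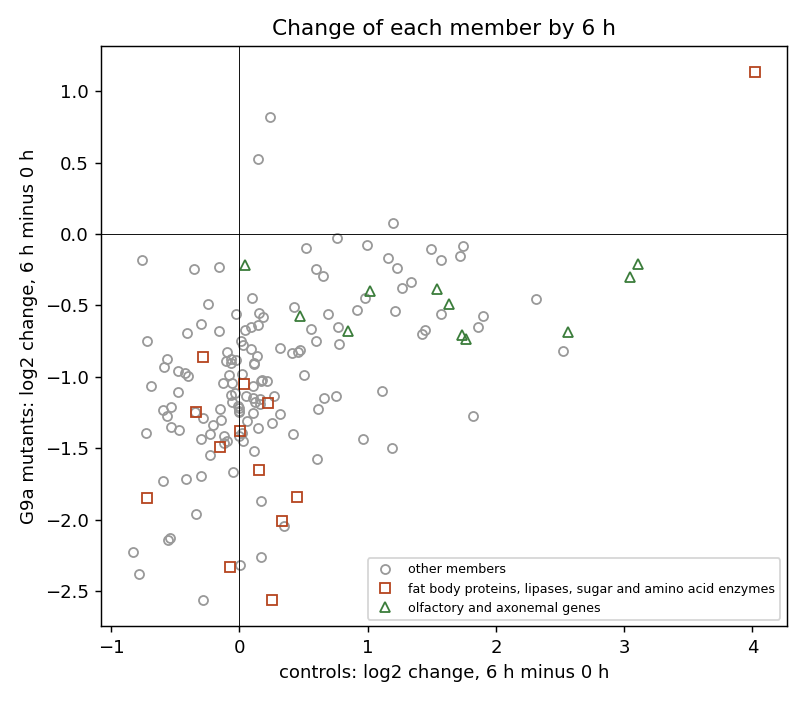
Log2 change between 0 and 6 h of each of the 164 members in G9a mutants (y axis) and controls (x axis), with role groups marked. Squares (fat body proteins, lipases, and sugar and amino acid enzymes) lie mostly low and near 0 on the x axis, and triangles (olfactory and axonemal genes) lie to the right, except Or42a (0.05 on the x axis) and Dnah3 (0.47), while the square at the far upper right is CG10357.

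**Figure D5:**
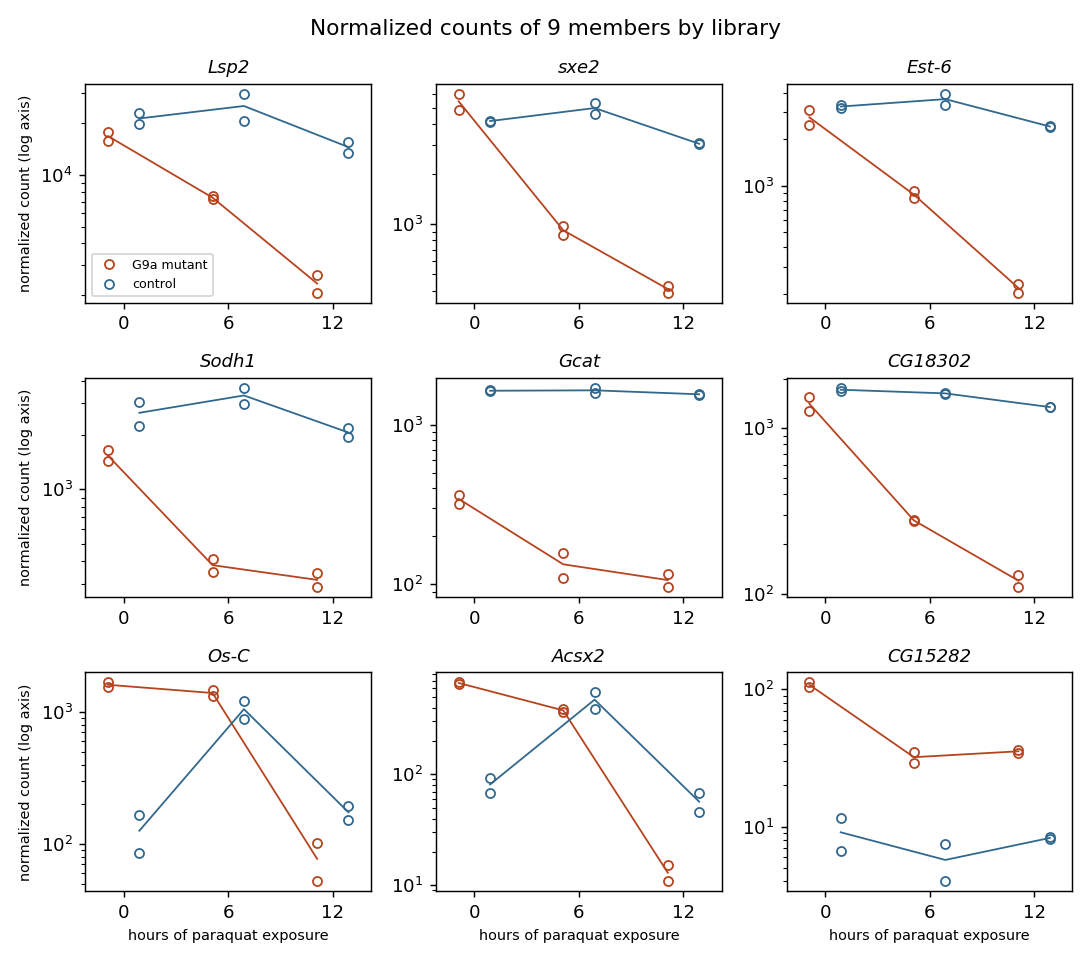
Normalized counts (log axis) of 9 members in single libraries (points) by hours of paraquat, with lines through group means and points shifted sideways by genotype (G9a mutants left). In Lsp2, sxe2, Est-6, Sodh1, Gcat and CG18302 the genotypes are apart at 6 h, in Os-C and Acsx2 they are close at 6 h, and in CG15282 the mutants are the higher at every hour.

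Transcription factors and signals were few and low in count. The homeobox gene ems (log2 difference -1.02 ± 0.16 SE, adjusted p = 0.00043) and the bHLH gene Fer3 (log2 difference -0.83 ± 0.29 SE, adjusted p = 0.045) were lower at 6 h. The ligand gene hh (log2 difference 0.50 ± 0.37 SE, adjusted p = 0.34), the homeobox gene al (log2 difference -0.73 ± 0.72 SE, adjusted p = 0.48) and the bHLH gene twi (log2 difference 0.10 ± 0.61 SE, adjusted p = 0.92) were not called, and their libraries overlapped.

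Several members with a large difference at 6 h belong to no group above. CG9701 had 64.1 and 41.7 normalized counts at 6 h in mutants, against 439 and 399.5 in controls (log2 difference -2.99 ± 0.25 SE, adjusted p = 3.7e-06). CG14356 had 5.03 and 1.07 in mutants, against 38.5 and 45.9 in controls (log2 difference -3.61 ± 0.50 SE, adjusted p = 0.00017). Ts, thymidylate synthase, had 2.51 and 3.21 in mutants, against 18.6 and 19.9 in controls (log2 difference -2.39 ± 0.48 SE, adjusted p = 0.0023). CG14356 and Ts rest on few reads, and both passed the minimum mean only through the controls, with means over the 6 mutant libraries of 7.84 for CG14356 and 3.30 for Ts. Ts also has exons opposite Rbp9, whose mean count is 35975. The minimum mean was passed only through the controls by phtm, CG7367 and twi too, and 4 of these 5 members were called lower, a direction that the filter favours. Of the 12 members with the highest mean counts, ldd (log2 difference -1.65 ± 0.09 SE, adjusted p = 1.8e-07) and CG6503 (log2 difference -1.09 ± 0.16 SE, adjusted p = 0.00027) were also lower. FBgn0031629, a gene ID for which no symbol was found, had 6264 and 6254 normalized counts in mutants at 0 h, 2373 and 2210.3 at 6 h and 1223 and 1189 at 12 h, against 1994 and 1945 in controls at 0 h, 1737 and 1958 at 6 h and 1860.4 and 2039.6 at 12 h. It was higher in mutants at 0 and 6 h, and the difference at 6 h was under 1.5-fold (log2 difference 0.31 ± 0.06 SE, adjusted p = 0.003).

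Besides Lsp1alpha, the members called higher in mutants at 6 h were CG15282, CG43094 and Mov10. CG15282 had 104 and 112 normalized counts in mutants at 0 h, 35.2 and 28.9 at 6 h and 34.6 and 36.1 at 12 h, against 11.5 and 6.69 in controls at 0 h, 3.98 and 7.44 at 6 h and 8.37 and 8.15 at 12 h. It was higher in mutants at every hour and passed the minimum mean only through them (log2 difference 2.34 ± 0.34 SE, adjusted p = 0.00029 at 6 h). CG43094 had 84.2 and 61 at 6 h in mutants, against 31.8 and 26.1 in controls (log2 difference 1.29 ± 0.24 SE, adjusted p = 0.0015). Mov10 had 75.4 and 89.8 in mutants, against 47.7 and 50.9 in controls (log2 difference 0.73 ± 0.24 SE, adjusted p = 0.038). Its call was lost with DESeq2 on the recovered reads (adjusted p = 0.079), with no minimum count (limma, adjusted p = 0.095) and with any of the 4 libraries at 6 h left out.

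The other fixed lists gave these values at 6 h. Of 12 muscle markers 7 were lower and none higher (median -0.70), and their sum was 96531 to 97339 at 0 h, 92286 to 104969 at 6 h and 73814 to 76379 at 12 h in mutants, against 148430 to 149161, 133997 to 168098 and 117185 to 123147 in controls at the same hours. Of 10 haemocyte markers 5 were lower and none higher (median -0.62). The haemocyte sum already differed at 0 h, at 8201 to 8902 in mutants and 9505 to 10603 in controls. So did the photoreceptor sum, at 2.45e+06 to 2.49e+06 in mutants and 1.71e+06 to 1.78e+06 in controls. Of 14 photoreceptor markers none was lower and 3 were higher (median 0.23), and of 8 neuron markers none was called by limma, edgeR or DESeq2 (median 0.06; at an unadjusted p under 0.05 in limma, 0 lower and 2 higher). Of 9 glia markers 1 was lower and 1 higher (median -0.06). The glial cell surface gene wrapper, a member, had 1605 and 1593 normalized counts in mutants at 0 h, 1079.9 and 1091 at 6 h and 483 and 491 at 12 h, against 1506 and 1491 in controls at 0 h, 1379 and 1567 at 6 h and 1408 and 1412 at 12 h, and its difference at 6 h (log2 difference -0.44 ± 0.06 SE, adjusted p = 0.00017) was under 1.5-fold. Of 8 core clock genes 1 was lower and 1 higher, and of 15 juvenile hormone and ecdysone genes 1 was lower and 2 higher. The core clock sum was 33184 to 34213 at 0 h and 128762 to 129881 at 12 h in mutants. In controls that sum was 29994 to 33360 at 0 h and 132967 to 139401 at 12 h. Accessory gland markers had 2 tested genes and testis markers 1, with none called, and no gene of the gut protease list had a mean of 10. In any library the testis markers summed to at most 88.6 normalized counts and the gut proteases to at most 38.9. For the remaining members named by the rule's edges, CG7322 was lower at 6 h (log2 difference -1.29 ± 0.11 SE, adjusted p = 6.3e-06) and CG5280 was not called (log2 difference 0.11 ± 0.50 SE, adjusted p = 0.9).

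Some members sit side by side. In Ensembl release 115 (BDGP 6), 160 members could be placed, and 24 of them formed 11 runs of neighbouring genes. These were CG9497 with CG9498, CG15143 with CG15144, CG1773 with CG10459, Dso1 with Dso2, Os-C with Sfp84E, CG43092 with CG43093 and CG43094, Orct with CG6356, CG10553 with CG10560, Nepl18 with Nepl19, ssp7 with CG15199 and CG15202, and the cuticle-associated obst-A with Peritrophin-A. How reads on shared exon stretches were counted is not given in the sources used here, so such reads may be lost or misplaced. This can affect 29 members, whose exons overlap those of another gene. Among the members named above these are Os-C with Sfp84E, CG1773 with CG10459, Ts with Rbp9, Est-6 with thoc6, Mov10 with CG30460, CG5280 with CG5068, Acer with lmgA and lmgB, Daao2 with CG17375, CG6356 with CG34290, CG9313 with CG15651, twi with CG9897 and asRNA:CR42742, CG7367 with Cka, prc with CG43294 and CG3081 with CG3062.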

How the data were processed

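Per the labels and methods, the authors prepared libraries from pooled heads with the TruSeq RNA kit and sequenced single-end reads of 30 bp. They aligned the reads with BWA to BDGP 5, counted them with HTSeq and divided by DESeq size factors (versions not given in the sources used here). The deposited values are therefore a signal, normalized counts per gene. All 188184 of them were whole multiples of the value of 1 read, within 0.01 reads, so reads were recovered. The authors' 4 tables of comparisons hold fold changes and p-values and were not used. Of 15682 gene IDs, 15002 had a symbol, and 4 members had none.

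Genes with a mean of at least 10 were fitted on log2(count + 1) with limma 3.58.1 in R 4.3.3 (6 groups, 6 residual degrees of freedom, trended variance), so fold changes understate those of low genes. An exact permutation test of 2 against 2 libraries cannot go below p = 0.333, and none was used. edgeR 4.0.16 (quasi-likelihood) on the recovered reads called 805 genes lower and 658 higher in mutants at 6 h, DESeq2 1.42.0 called 736 and 610, and limma called 778 and 688. The steps were tested on simulated data. Members and lists were chosen with earlier results of these data known. The members named are the 12 with the highest mean count, up to 8 called with the most negative and 8 with the most positive difference at 6 h, those in a marker list, and those nearest the limits. Role groups were drawn up after values had been seen, and their other members are named too. They are not full lists, and members of the same kind can stand outside them. The lists cover markers of 10 tissues or cell types (fat body, antenna, photoreceptor, neuron, glia, haemocyte, muscle, accessory gland, testis, gut protease) and 6 pathways. Alternatives were other pseudocounts, minimum counts, scaling, tools, a replicate block and each library left out.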

Additional observations from a re-analysis of the deposited data

Results flagged for a closer look

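In 47 members both mutant libraries were lower and both control libraries higher at 6 h than at 0 h, without overlap (28.7%, against 5.30% of all genes tested). The difference between the genotypes was not tested, and because the 0 h libraries also chose the members, nothing is read from this count.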

How the results depend on the processing

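The count of members lower in mutants at 6 h was 86, and ran between 74 and 88 with other pseudocounts, minimum counts, TMM scaling, the 6 h libraries alone, edgeR (86) and DESeq2 (82). Leaving out each library in turn gave 71 to 88 lower and 3 to 5 higher. The count of members higher was 4, and 2 with a mean of at least 50, where 118 members were tested. Over all genes, leaving out each library gave 658 to 795 lower and 568 to 684 higher. The replicate numbers were not taken to pair the samples: the differences between duplicates correlated at -0.12 over genes between mutants and controls at 6 h, and at -0.57 to 0.45 over the 15 pairs of groups, with the lowest between controls at 6 and 12 h. With the replicate block 84 members were lower and 4 higher, and with the control 6 h numbers crossed, chosen after seeing the data, again 84 and 4. The rule gave 141 members with a pseudocount of 5, 165 with 0.5, 167 with TMM scaling, 118 with a mean of at least 50 and 243 with no minimum, and 144 to 185 with 1 library left out. 84 members met the rule whichever library was left out. No named member reversed. Members with few reads are limited by counting error, and 2 libraries a group leave each gene's spread to be shared over all genes.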
